A study of Mus musculus with 8 samples.

Results

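Smad4 binding in mouse CD4+ T cells was read from 4 lists of ChIP-seq peaks, and 619 of the 16501 regions that both wild-type (WT) libraries shared were also called in a library from Smad4-deleted cells (KO). Peaks of the 2 WT lists that overlapped by at least 1 bp were merged, a region had to hold a peak of both lists, and it was kept where a peak of at least 1 of the 2 KO lists overlapped it by at least 1 bp. Of the 619 regions, 193 were called in both KO lists, 271 in KO replicate 1 alone and 155 in KO replicate 2 alone. The regions were thus chosen by the peak calls of all 4 lists, and their number is a description. As a background, 3.75% of all shared WT regions met a peak of either KO list, 2.81% one of KO replicate 1, 2.11% one of KO replicate 2 and 1.17% peaks of both. The remaining 15882 shared WT regions, with no KO peak, are called WT-only below.

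The CD4+ T cells came from C57BL/6 spleen and lymph nodes, were activated, and were taken 12 h after treatment. In WT and KO alike the treatment was IL6 (interleukin 6) with a TGFbR inhibitor, a blocker of the TGF-β receptor. The KO animals had the genotype CD4cre;Smad4fl/fl, in which Cre recombinase expressed from Cd4 regulatory sequences removes a floxed part of Smad4 in cells of the T lineage. By the labels, WT cells were from females, those of KO replicate 1 were pooled from males and females, and those of KO replicate 2 were male. Genotype and sex therefore cannot be told apart. The labels do not say whether the replicates of a group came from separate animals, so any comparison measures only the spread between these libraries. The 4 lists held 27120 and 19792 peaks in WT and 564 and 424 in KO, without a height or score and with unknown read depth. Strong binding in few cells and weak binding in all cells cannot be told apart in such lists.

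Smad4 is the common partner SMAD, used downstream of TGF-β as well as BMP receptors. It joins receptor-activated SMADs, binds short DNA elements built on the sequence GTCT or its reverse complement, and switches on genes of its own inhibitors, among them the inhibitory SMAD gene Smad7 and Skil. Skil and Ski encode co-repressors that hold SMAD complexes inactive. A KO library run with the same antibody serves in such a design as the control for signal that does not depend on the target.

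Promoter sequences were available for a part of these regions, and 3 of them held the perfect SMAD palindrome GTCTAGAC. Among 111 promoter windows (250 bases before to 50 after a transcription start, from RefSeq on GRCm38.p6) whose start lay in a region also called in KO, 3 held GTCTAGAC, which is 2.70% (exact 95% Clopper-Pearson interval 0.561% to 7.70%). The share was 0.361% of the 6096 windows that started in a WT-only region (22 windows) and 0.213% of all 32851 windows (70 windows). The 3 windows belong to Sirt6, which encodes a sirtuin deacetylase, to Armc9, and to an internal start of Tnfaip3, which encodes the NF-κB inhibitor A20. They are shown because the palindrome lay inside every KO peak called there. Each stretch is given 5′ to 3′ on the strand of its gene with the palindrome in capitals, and it ends at or before the last base upstream of the start.
Sirt6, chr10:81627323-81627451, minus strand: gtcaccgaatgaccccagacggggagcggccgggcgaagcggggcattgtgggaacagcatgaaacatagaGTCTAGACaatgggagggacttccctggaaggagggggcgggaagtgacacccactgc
Tnfaip3, chr10:19012064-19012213, minus strand: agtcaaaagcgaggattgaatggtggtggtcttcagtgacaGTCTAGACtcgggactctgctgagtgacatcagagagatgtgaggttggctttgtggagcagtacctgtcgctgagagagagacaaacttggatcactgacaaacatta
Armc9, chr1:86154550-86154699, plus strand: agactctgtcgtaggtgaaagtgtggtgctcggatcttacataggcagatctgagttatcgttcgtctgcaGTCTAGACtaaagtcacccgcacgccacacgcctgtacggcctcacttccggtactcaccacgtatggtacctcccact

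At Sirt6 the palindrome lay 128 bp from the centre of the KO replicate 1 peak and 136 bp from that of KO replicate 2. Peak widths there were 870 and 966 bp in the WT libraries, against 462 and 304 bp in the KO libraries. At the internal Tnfaip3 start it lay 21 bp from the centre of the only KO peak, that of KO replicate 1, and the widths were 968 and 710 bp in WT and 318 bp in KO. At Armc9 it lay 26 bp from the KO replicate 1 centre, with widths of 872 and 870 bp in WT and 396 bp in KO. KO replicate 2 had no peak at the last 2 sites. A match describes these letters only. Windows of 1 gene can overlap, and other members lie outside the promoter windows and were not searched.

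Shorter motifs were found in more of the windows. The ETS core CCGGAAG was found in 17.1% of the 111 windows (interval 10.6% to 25.4%), against 23.7% of windows starting in WT-only regions and 8.86% of all windows. The AP-1 sites TGACTCA or TGAGTCA were in 4.50% (1.48% to 10.2%), against 3.33% and 5.20%. The SMAD element CAGACA was in 12.6% (7.07% to 20.3%), against 15.8% and 21.0%, and the GC-rich SMAD element GGCGC in 68.5% (58.96% to 77.0%), against 74.6% and 36.9%. Both strands were searched and motifs could overlap. The median GC content was 60% in the 111 windows, 64% in windows of WT-only regions and 52.7% in all windows, and the shares of GGCGC and CCGGAAG were ordered as the GC content; its part was not tested.

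The promoter of Il2ra, which encodes the high-affinity chain of the interleukin 2 receptor, is shown for comparison because its region was called in all 4 libraries and none of the motifs is in the stretch.
Il2ra, chr2:11642642-11642791, plus strand: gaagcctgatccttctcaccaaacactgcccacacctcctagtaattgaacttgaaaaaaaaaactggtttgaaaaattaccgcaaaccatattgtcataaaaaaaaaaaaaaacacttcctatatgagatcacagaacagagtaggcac

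Most KO peaks fell in these regions, and their position within them is a description, since the rule kept only peaks that overlap a WT region and so brings KO and WT centres close. Of the KO peaks, 470 of 564 in replicate 1 (83.3%, interval 80.0% to 86.3%) and 352 of 424 in replicate 2 (83.0%, 79.1% to 86.5%) fell in these regions. Of those in the regions, 83.6% (79.96% to 86.8%) in replicate 1 and 88.6% (84.8% to 91.8%) in replicate 2 lay wholly within a peak of each WT list, which is 393 of all 564 and 312 of all 424 KO peaks. The median distance between KO and WT peak centres was 49.0 bp (replicate 1) and 38.5 bp (replicate 2) against WT replicate 1, and 46.0 and 39.0 bp against WT replicate 2. In the 193 regions called in both KO lists, the KO centres were a median of 31.0 bp apart, and 172 of them (89.1%) were within 100 bp. The plot of centre distances shows 1 narrow peak around 0 for each KO list. Of the KO peaks outside these regions, 77 in replicate 1 and 57 in replicate 2 met no WT peak at all, and their lists' outside peaks had the smallest possible median width, 254 and 234 bp.

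**Figure D1:**
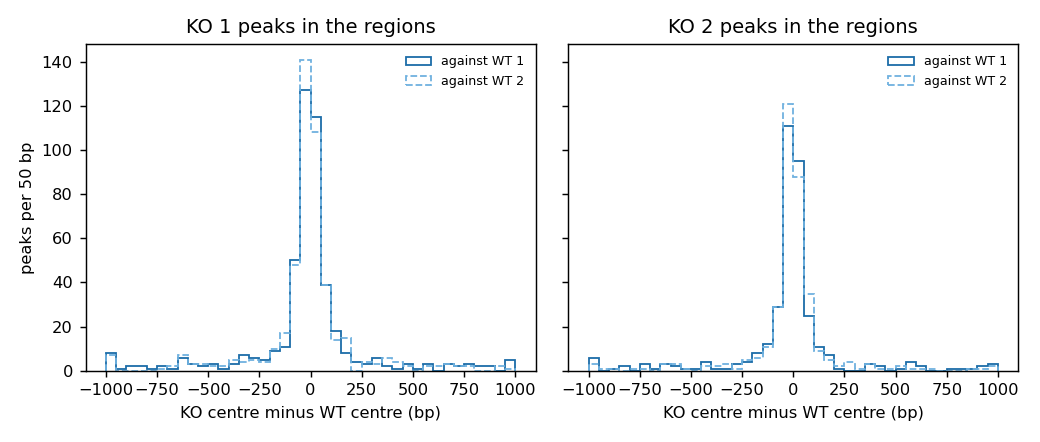
Distance from the WT peak centre to the KO peak centre (bp, in bins of 50 bp, with values beyond 1000 bp drawn in the outermost bins) for KO replicate 1 (left) and KO replicate 2 (right), against each WT list. Most distances lie close to 0, with medians of their sizes between 38.5 and 49.0 bp.

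KO peaks were narrower than WT peaks in the same places. Over the 193 regions called in all 4 libraries, the mean peak widths of WT replicates 1 and 2 were 1368 and 1220 bp, and those of KO replicates 1 and 2 were 435 and 370 bp. Both WT libraries stood above both KO libraries. The mean over WT libraries was 1294 ± 105 bp and that over KO libraries 402 ± 46.3 bp (SD, n = 2 each), a 3.22-fold difference of geometric means, and the 2-sided exact permutation test over libraries gave p = 0.333, the smallest that 2 against 2 allows. These regions were selected and lean to wide WT peaks, with 38.3% of them in the widest of 10 equal groups of shared WT regions. Over whole lists the gap was smaller, with mean widths of 581 and 566 bp for the WT lists against 343 and 314 bp for the KO lists, and medians of 440 and 438 bp against 318 and 294 bp. In 187 of the 193 regions (96.9%) the narrower WT value was above the wider KO value. KO peaks had the smallest width found in their list in 41 regions (254 bp, replicate 1) and 31 regions (234 bp, replicate 2), the least that the list holds. Width was the only measure in the files, and it need not follow the height of a peak. Within the regions, KO and WT widths rose together weakly, with a Spearman correlation of 0.284 across the 464 regions of KO replicate 1 and 0.251 across the 348 of KO replicate 2, where the regions share a library and are not independent.

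**Figure D2:**
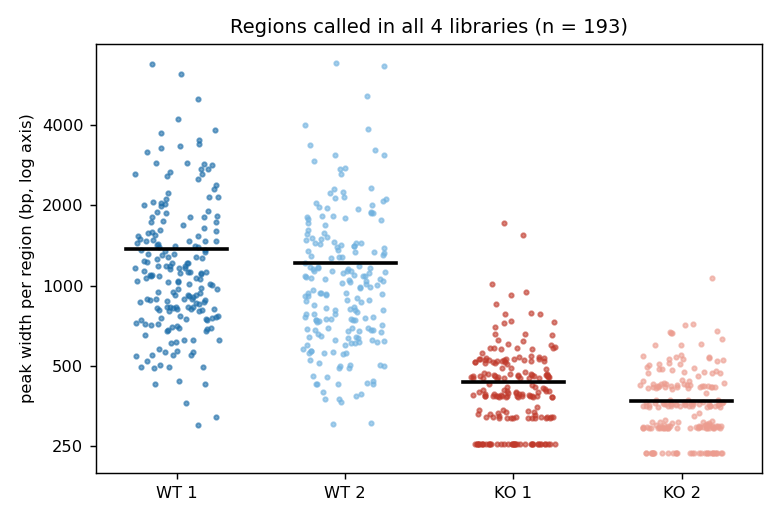
Peak width per region (bp, log axis) in each library for the 193 regions called in all 4 libraries, with 1 point per region and a black line at the mean; several peaks of a library in a region were summed. The KO means, 435 and 370 bp, lie below the WT means, 1368 and 1220 bp, and the rows of KO points at the bottom are peaks at the smallest width of their list.

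Wide WT regions held a KO peak more often. With the shared WT regions in 10 groups by WT peak width, the share also called in KO was 0.666% in the narrowest group (11 of 1651 regions) and 10.7% in the widest (176 of 1650), and the share called in both KO lists was 0.0606% and 4.48%. A wide region offers more room for an overlap, and the part of this was not tested. The median region was 1016 bp wide (range 269 to 7018 bp), against 644 bp for WT-only regions. Even in the widest group most regions had no KO peak.

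Skil, Smad7 and Smad3 of the SMAD pathway each held a region called in all 4 libraries. Skil, the gene of the SnoN co-repressor, had the largest summed KO width of all (chr3:31092444-31097591), with peaks of 4222 and 5148 bp in WT, against 1716 and 668 bp in KO. Smad7 encodes the inhibitory SMAD that blocks receptor signalling (chr18:75366053-75372921). It had 6234 bp (2 peaks summed) and 6834 bp in WT, against 784 and 536 bp in KO. The KO peaks thus covered a larger part of the WT peak at Skil than at Smad7, where the KO to WT width ratio was 0.254 and 0.101. Smad3, a receptor-activated SMAD gene, held 1 region inside the gene (chr9:63737511-63739334) with 1812 and 1764 bp in WT, against 422 and 356 bp in KO. Each of these genes also held WT-only regions, 5 at Skil, 6 at Smad7 and 10 at Smad3.

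Other genes of the pathway had a KO peak in 1 library or none. Ski, the co-repressor gene related to Skil, held 10 WT-only regions and no region called in KO, and the nearest one lay 785 kb away. Smad4 itself (chr18:73680513-73681006) held a region of 494 and 448 bp in WT with a 254 bp peak in KO replicate 1 alone. That peak is at the smallest width of its list. Deletion of the floxed part cannot be read from peak positions. Tgfb1, the ligand gene (chr7:25686446-25690055), had peaks of 3600 and 3150 bp in WT and 234 bp in KO replicate 2 alone. Ldlrad4, which encodes a membrane inhibitor of SMAD activation (chr18:68189736-68190535), had 800 and 674 bp in WT and 254 bp in KO replicate 1 alone. In the list of SMAD feedback and target genes, 3 of 17 had a region called in KO and 2 of 17 one called in both KO lists, and 16 of 17 had a WT-only region. In the list of receptors, ligands and SMADs these counts were 3, 1 and 16 of 22. Over all 21779 protein-coding genes, 1.98% had a region called in KO within the gene or 10 kb of it (432 genes), 0.565% one called in both lists (123 genes) and 44.3% a WT-only region (9655 genes).

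**Figure D3:**
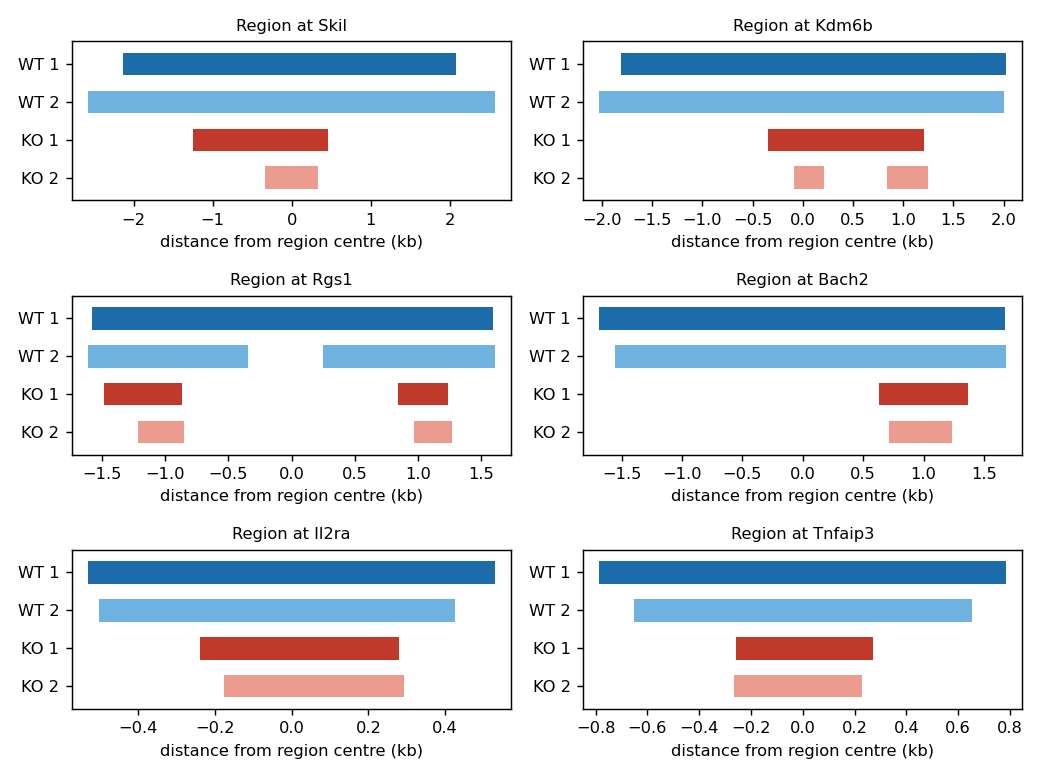
Extent of each called peak (bars) in the 4 libraries at 6 regions called in all of them, as distance from the region centre in kb. The KO bars lie inside the WT bars, off centre at Bach2, where the KO peaks are 738 and 526 bp wide, and as separate pairs at Rgs1.

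After Skil, the largest summed KO widths among regions called in both KO lists were those at Kdm6b and Rgs1. Kdm6b, which encodes a demethylase of repressive histone H3 marks, had peaks of 3836 and 4026 bp in WT and of 1554 and 712 bp in KO, the last split over 2 peaks (chr11:69408689-69412740). Kdm1a, which encodes another histone demethylase and was also among the 15 regions with the largest KO widths, had 1538 and 1410 bp in WT, against 780 and 486 bp in KO, inside the gene (chr4:136569451-136570988). Rgs1, whose product dampens chemokine receptor signalling, had a region 2.58 kb from the gene with 3176 and 2626 bp in WT, against 1012 and 666 bp in KO (chr1:144238868-144242087). There both KO libraries and WT replicate 2 had 2 separate peaks in the region, with widths summed. All 4 libraries called these loci, and every KO value was below both WT values.

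Regions at or near Bach2, Klf2 and Foxp1, transcription factor genes with a part in T cell quiescence, were among those called in both KO lists. These genes were not in the T cell identity list. Of the factor genes in that list, Runx1 held 2 regions called in KO, neither in both KO lists, and 9 WT-only regions. Tcf7, Lef1, Ets1, Bcl11b, Satb1 and Ikzf1 held 5, 12, 24, 16, 6 and 9 WT-only regions and none called in KO. Bach2, a repressor of effector differentiation, had 3360 and 3242 bp in WT, against 738 and 526 bp in KO (chr4:32248202-32251572). Klf2, which sustains quiescence and lymph node homing, had a region 9.01 kb away with 1308 and 1086 bp in WT, against 582 and 664 bp in KO (chr8:72330664-72331971). Eps15l1, whose lower coordinate is chr8:72340990, lay about as near on the other side of that region. Foxp1, another quiescence factor, was the gene with the most regions called in both KO lists, 4 of 4, all inside the gene, beside 39 WT-only regions. At the widest of them (chr6:99259519-99262032) the peaks measured 2514 and 2336 bp in WT, against 254 and 296 bp in KO, and at the one with the widest KO peaks (chr6:99050207-99051118) 912 and 624 bp in WT, against 412 and 430 bp in KO. KO width did not follow WT width among these 4.

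Further regions of the 15 with the largest KO widths lay at genes of varied function. The region 1.11 kb from Itpr1, an intracellular calcium channel gene (chr6:108552223-108555502), had 3280 and 2254 bp in WT, against 920 and 674 bp in KO. Each KO value there is the sum of 2 peaks. A region 123 kb from Smim20 (chr5:53401064-53403378) had 2302 and 2310 bp in WT, and here KO replicate 2 was the wider one, with 1064 against 530 bp. KO replicate 2 was also wider 3.41 kb from Ankrd12 (chr17:65961140-65962295), with 716 against 660 bp, beside 1156 and 846 bp in WT. Over the 193 regions KO replicate 1 was wider in 138. The others of the 15 lay inside Alpk2, Atxn1, Aig1 and Specc1l and 32.5 kb from Ube2e3, with KO peaks between 414 and 852 bp and WT peaks between 800 and 1830 bp.

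Several genes held a group of regions called in KO. Of the 432 genes, 43 had at least 2. Smg6, Atxn1, Foxp1, Bach2 and Hivep2 had 4 each, and Itpr1, Il2ra, Dthd1, Lpp and Hivep3 had 3 each and the next largest summed KO widths. At Hivep2, a zinc finger gene, each region was called in 1 KO list only, 3 of 4 in replicate 2. Smg6 had 3 of 4 called in both. Long genes have more room for regions, and counts were not adjusted for gene length. Of the 432 genes, 340 (78.7%) also held a WT-only region.

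Some regions called in KO lay close to each other. With regions no more than 100 kb apart joined, 88 clusters held 218 of the 619 regions (35.2%), 29 of the clusters held at least 3, and 401 regions stood alone. WT-only regions are far more numerous and would join more readily by this rule, so no share of theirs is set beside it. The cluster at chr2:128366842-128452273 held 6 regions, 3 of them called in both KO lists, and 7 WT-only regions. It spans the start of Morrbid, a long noncoding RNA gene known for its control of the neighbouring death gene Bcl2l11. The region over that start (chr2:128427635-128431038) had 3404 and 3108 bp in WT, against 338 and 358 bp in KO. A cluster of 6 beside and partly over Tbl1xr1, a co-repressor subunit gene, covered chr3:21935130-22078516, with 2 called in both KO lists. Ccr9, a gut-homing chemokine receptor gene, lay at a cluster of 4 (chr9:123732508-123769038), 3 of them called in both.

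Outside gene territories, 3 regions lay 17.8, 27.4 and 106 kb from Ahr, the gene of a ligand-activated factor of Th17 cells, and all 3 were called in both KO lists. The one at 27.4 kb (chr12:35562430-35563568) had 1116 and 1134 bp in WT, against 620 and 414 bp in KO. Near Id2, which encodes an inhibitor of E proteins, 3 regions lay 92.8 to 209 kb away, 2 of them called in both KO lists. In 4 of the clusters of at least 3, there was no WT-only region between the members. They were 5 regions in Gm31718, a long noncoding RNA gene (chr8:126847152-126868414), 4 near Tnfrsf19 (chr14:60937528-60955493), 3 inside Dthd1 and 3 at the olfactory receptor genes Olfr433 and Olfr432 (chr1:174040606-174053668). The first of those near Tnfrsf19 had a wider KO replicate 1 peak than either WT peak, 700 bp against 496 and 558 bp, with 458 bp in KO replicate 2.

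KO peaks about as wide as the WT peaks were rare. The ratio of mean KO to mean WT width had a median of 0.361 (quartiles 0.242 and 0.500) and was at least 1 in 4 regions. After the region near Tnfrsf19 (ratio 1.10), the largest ratios were 1.05 at 181 kb from Cog6, 1.05 at Prkab2, 1.01 at 25.3 kb from Efcab11 and 0.993 inside Adtrp. These last 4 were called in KO replicate 1 alone, and each had WT peaks of at most 442 bp. At the region near Cog6 every peak was as narrow as its list allows (240 and 242 bp in WT, 254 bp in KO). It was also the member with the smallest overlap, 47 bp, followed by Gtf2a1 with 127 bp and Ermap with 193 bp. Just outside the rule, WT regions at Med12l, Ccdc162 and Ctla4 missed a KO replicate 1 peak by 7, 17 and 229 bp.

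Genes of the IL-6, JAK and STAT3 pathway had a region called in KO in 6 of 19 cases, 1 of them in both lists, and all 19 had a WT-only region. The region in both lists lay inside Pim1, a STAT-induced kinase gene (chr17:29493966-29495029), with 1064 and 1018 bp in WT, against 388 and 234 bp in KO. Cish and Bcl3 had 356 and 312 bp in KO replicate 2 alone. Tyk2 and Stat3 had 254 bp in KO replicate 1 alone. Among Th17 genes 4 of 16 had such a region, 1 in both lists, and 13 had a WT-only region. Il1r1, the interleukin 1 receptor gene (chr1:40235469-40236743), had 1180 and 986 bp in WT, against 396 and 540 bp in KO. Il23r, the interleukin 23 receptor gene (chr6:67483073-67483638), had no WT-only region. Its peaks were 566 and 308 bp in WT and 328 bp in KO replicate 2 alone. Rora had a KO peak of 234 bp in replicate 2 alone. Il17a and Il17f, the cytokine genes of these cells, had no region called in KO and 1 WT-only region each. Over all protein-coding genes, 1.98% had a region called in KO, 0.565% one called in both lists and 44.3% a WT-only region. The list counts were not adjusted for the number of WT regions per gene.

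In the list of regulatory T cell and IL-2 receptor genes, 3 of 13 had a region called in KO, 1 of them in both lists, and 12 had a WT-only region. Il2ra held 3. The region over its start (chr2:11642125-11643184) had 1060 and 928 bp in WT, against 518 and 468 bp in KO. The 2 others, inside the gene, were called in KO replicate 1 alone with 410 and 338 bp. Tnfrsf4 and Tnfrsf9 had 254 bp in KO replicate 1 alone. Among T cell receptor signalling and identity genes 3 of 20 had such a region and all 20 had a WT-only region. Cd247, which encodes the ζ chain of the receptor (chr1:165801331-165804529), had 2842 and 2928 bp in WT, against 382 and 420 bp in KO, while Ptprc and Runx1 had KO peaks in replicate 2 alone. Cd4 had 2 WT-only regions and none called in KO. Among Th1 and Th2 genes 2 of 16, Stat4 and Il4ra, had a region called in 1 KO list. The shares over all protein-coding genes were 1.98% with a region called in KO, 0.565% in both lists and 44.3% with a WT-only region. WT regions per gene were not adjusted for here either.

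Immediate-early, AP-1, NFAT and NF-κB genes had a region called in KO in 6 of 25 cases, 1 of them in both lists, and all 25 had a WT-only region. At Egr2, a factor gene induced by the T cell receptor (chr10:67534975-67538056), the peaks measured 2892 and 2760 bp in WT, against 408 and 292 bp in KO. Nfkbia, the gene of an NF-κB inhibitor, had 414 bp in KO replicate 1 alone, and Ier5 and Jun had 302 bp in replicate 2 and 254 bp in replicate 1. Histone and DNA modifying enzymes had 5 of 18, with 3 in both lists. Besides Kdm6b these were Hdac7 (1028 and 878 bp in WT, 320 and 234 bp in KO) and Kmt2a, a methyltransferase gene (1220 and 1428 bp in WT, 254 and 234 bp in KO, both at the smallest widths). Hdac4 had 352 bp in KO replicate 2 alone. Of the MAP kinase and phosphatase feedback genes 1 of 14, Dusp2, had such a region, and of the highly transcribed housekeeping genes 1 of 20, Eef1a1. In these housekeeping genes 18 of 20 had a WT-only region. No gene of the B cell (10), myeloid (12), hepatocyte (10) or neuron (10) lists had a region called in KO, while 5, 2, 0 and 4 had a WT-only region. The lists were not matched on gene length, and the 1.98% over all genes includes genes with no WT region. The number of WT regions per gene was not adjusted for. Lists of 10 or 12 genes are too short to tell 0 from 1.98%.

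**Figure D4:**
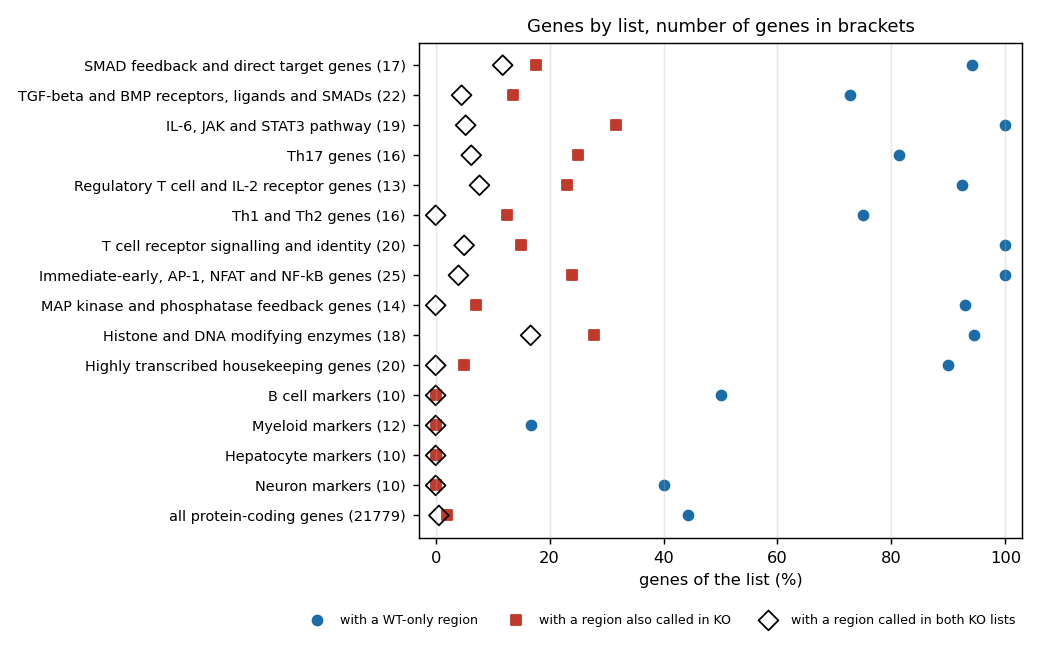
Share of genes in each list (percent, number of genes in brackets) with a WT-only region, with a region also called in KO and with a region called in both KO lists, within the gene or 10 kb of it. The Th17, regulatory T cell, Th1 and Th2, and T cell receptor lists lie between 12.5% and 25% for regions also called in KO. The share is 1.98% of all protein-coding genes. Pathway, enzyme and housekeeping lists range from 5% (housekeeping) and 7.14% (MAP kinase) to 27.8% (histone and DNA enzymes) and 31.6% (IL-6, JAK and STAT3). For WT-only regions the T cell lists lie between 75% and 100%, against 44.3%, and the number of WT regions per gene was not adjusted for. The 4 lists of other cell types lie at 0. With 10 or 12 genes each, they are too short to tell 0 from 1.98%.

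Most regions called in KO lay away from the ends of genes. A gene end is here the 1 kb on either side of the start or end coordinate of a protein-coding gene. The centres of 13.4% lay at a gene end (83 of 619; interval 10.8% to 16.3%), against 33.7% (32.9% to 34.4%) of WT-only regions and 41.5% of WT-only regions weighted to the widths of the 619. Outside genes lay 43.0% (39.0% to 47.0%), against 28.1% and, weighted, 24.0%. The share of regions more than 100 kb from any protein-coding gene was 10.5%, against 4.16% of WT-only regions. Regions are not replicates and neighbours are not independent, so the intervals cover counting error only and no test was made.

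The 2 KO libraries differed in this respect. Gene ends took 21.0% (57 of 271; interval 16.3% to 26.4%) of the regions called in KO replicate 1 alone, 7.74% (12 of 155; 4.06% to 13.1%) of those in KO replicate 2 alone and 7.25% (14 of 193; 4.02% to 11.9%) of those in both. All 3 shares were under that of WT-only regions. Transcription starts of coding and long noncoding genes lay in 20.7% of the regions of KO replicate 1 alone (56 regions), 5.81% of those of KO replicate 2 alone (9) and 7.77% of those in both (15), against 29.0% of WT-only regions. Sex differed between the KO libraries, and its part in this was not tested. Starts came from the promoter table, which has no entry for genes of chromosome 18 and some others, such as Skil. Regions at such genes count as holding no start of theirs, in every set. Among starts in the promoter table, some lay in regions called in both, with both KO peaks on the promoter window. They were those of Il2ra, Tnfaip3 (main start), Egr2, Gfi1, Kmt2a, Gabpb1, Phip, Sirt6, Med7, Cltc and the noncoding genes Morrbid and Gm42085. Genes without an entry are missed here. At Skil, for example, both KO peaks spanned the lower gene coordinate (chr3:31095058). At the main Tnfaip3 start (chr10:19014681-19016252) the peaks measured 1572 and 1306 bp in WT, against 528 and 496 bp in KO. At Gfi1, a repressor gene of lymphoid cells (chr5:107724109-107727941), they measured 3736 and 2114 bp in WT, against 384 and 292 bp in KO. WT replicate 2 had 2 peaks there, summed.

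**Figure D5:**
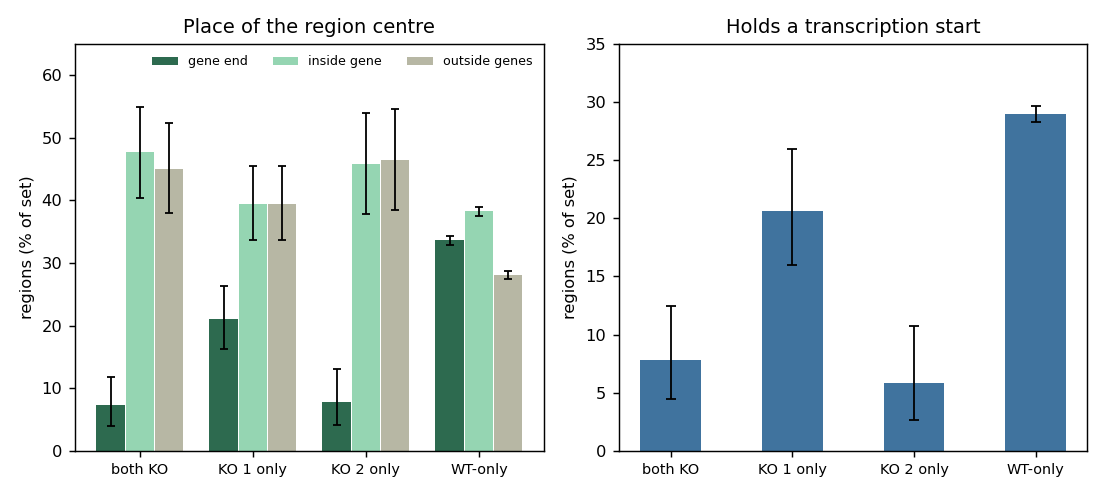
Left, share of regions (percent) by the place of the region centre, for regions called in both KO lists, in KO replicate 1 alone, in KO replicate 2 alone and WT-only. Right, share that holds a transcription start of the promoter table, which lacks some genes. Bars start at 0 and error bars are exact 95% intervals; gene ends take 7.25% of regions with both KO peaks and 33.7% of WT-only regions.

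Shared WT regions that held a small nuclear RNA gene were often also called in KO, mostly in replicate 1, though they made up only 2.42% of the 619 regions. Many genes of this class encode RNA parts of the spliceosome, but the annotation also places others in it, such as Rnu3a, Rnu3b2 and Rnu7. Of 35 shared WT regions that held a gene annotated as snRNA, 15 were also called in KO (42.9%; interval 26.3% to 60.6%), against 3.75% of all shared WT regions. In 12 of them KO replicate 1 alone had the peak, in 1 KO replicate 2 alone and in 2 both. Without KO replicate 1, 3 regions remained. Rnu1a1 (region chr11:87422507-87423451, called in both) had 684 and 832 bp in WT, against 560 and 292 bp in KO. Rnu11 (chr4:132268932-132270700) had 1718 and 1722 bp in WT and 552 bp in KO replicate 1, and Rnu12, Rnu7, Rnu5g and Rnu3a also had their KO peak in replicate 1 alone. Rnu2-10 (chr11:101657977-101659247) had it in replicate 2 alone, with 234 bp. The snRNA regions had a median WT width of 1166 bp where called in KO and 960 bp where not, so both were wide. Among all shared WT regions, 8.36% of those with WT widths of 902 to 1200 bp were called in KO. For those of 1201 bp or more the share was 10.7%. Of the regions holding a transfer RNA gene, 1 of 85 was called in KO (1.18%; interval 0.0298% to 6.38%), and none of 54 holding a microRNA gene was, which allows a share of up to 6.60%. snRNA genes have near-identical copies, and how reads shared by copies were placed is not given in the sources used here, so single copies are uncertain. This class was picked after its values were seen.

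T cell receptor loci held 3 regions called in KO. The widest of all 619 regions lay over the end of Trac, the constant segment of the receptor α chain, toward Dad1 (chr14:54221617-54228634), an interval known to hold the α chain enhancer. Its peaks were 6818 and 6708 bp in WT, against 786 and 350 bp in KO. The values of WT replicate 2 and KO replicate 1 are each sums of 2 peaks. In Tcrb, a region at Trbv1 (chr6:40890829-40891396) had 568 and 498 bp in WT, against 254 and 294 bp in KO, and one near the other end (chr6:41553977-41555016) had 994 bp in both WT lists and 318 bp in KO replicate 1 alone. A region inside Tspoap1 and 1.31 kb from the microRNA gene of miR-142 (chr11:87758232-87761245) had 3010 and 2496 bp in WT and 456 bp in KO replicate 1 alone. The mature miR-142a-3p, abundant in blood cells, is shown with its seed (bases 2 to 8) in capitals, since miR-142 was the closest microRNA gene to any of the regions.
mmu-miR-142a-3p: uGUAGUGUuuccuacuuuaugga

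The share of shared WT regions that were called in KO ran from 2.32% on chromosome 19 to 5.48% on chromosome 16 (33 of 602 regions), and it was 2.83% on X (7 of 247). No region called in KO lay on Y or on an unplaced sequence. Y held 2 shared WT regions, although the labels give the WT cells as female, and their source was not tested. Of the regions called in KO, 15.7% had no WT-only region within 50 kb, against 18.3% of WT-only regions and 16.9% weighted to the same widths.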

How the data were processed

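The authors deposited 1 peak list per ChIP sample, holding only start and end positions. Per the submitters' processing notes, Trim Galore, Bowtie, HOMER 4.8.3 and mm10 were used; their roles, thresholds and use of inputs were not given in the sources used here. The 4 input samples were not analysed here. Depth is unknown. Positions are 1-based. Gene bounds (21779 protein-coding genes, leaving out those starting below 3 Mb outside Y, where scaffold coordinates stand) and promoters came from RefSeq GRCm38.p6, the same assembly. The promoter table covers 27025 genes. Genes of chromosome 18 and some others, such as Skil and Kdm6b, have no entry. Shares carry exact 95% Clopper-Pearson intervals. Weighted shares average WT-only regions over 10 width groups in the members' proportions. Functions were tested on simulated data. The regions, the 15 gene lists and the naming rule were chosen with earlier results of these data known. Named were 7 fixed genes, the 15 regions with the largest KO width among those called in both KO lists, the 10 genes with most regions, up to 4 genes per list (1 is not reported here), the 5 largest KO to WT ratios and the 3 regions on each side of the overlap threshold. Other names (snRNA, receptor loci, clusters, Ahr, Id2, Gfi1, Tnfaip3, Sirt6 and Armc9) were chosen after values were seen. Python 3.11.15, numpy 2.4.6, pandas 2.3.3, SciPy 1.17.1 and matplotlib 3.10.9 were used.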

Additional observations from a re-analysis of the deposited data

How the results depend on the processing

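The number of regions called in KO (619) fell to 407 with KO centres within 100 bp of both WT centres and to 337 with peaks at or above the median width of their list. The share at gene ends (13.4%) was 10.8% with the centre rule, 25.04% with gene ends of 5 kb and 7.25% in both KO lists. Genes with such a region (432) were 284 with the centre rule, 224 with wider peaks, 112 with gene ends only and 123 in both KO lists, and list genes fell from 36 to 11 in both. Leaving out each library in turn gave 348 to 649 regions, 7.47% to 15.3% at gene ends and 220 to 451 genes, each lowest without KO replicate 1. The WT to KO width ratio stayed between 2.76 and 3.42 over its alternatives and between 2.90 and 3.42 leaving out libraries. With a replicate block it was 3.22 (exact permutation p = 0.500, the smallest that 2 pairs allow). Width differences between replicates 1 and 2 in WT and in KO had a Pearson r of -0.0994 over 193 regions. This check of widths cannot show whether libraries of the same number were processed together. The share of KO peaks in these regions (83.2%) rose to 95.8% without peaks at the smallest width, and was 83.0% to 83.3% leaving out a KO library. Leaving out each library gave 3 to 15 snRNA regions, an alternative chosen after seeing the data. Unknown depth limits what a missing KO peak shows.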
